A study of Mus musculus with 26 samples.

Results

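The 10 genes of muscle growth and repair followed across mouse models of muscular dystrophy were the myogenic regulatory factors Myod1, Myog, Myf5 and Myf6, the satellite cell factor Pax7, the intermediate filament genes Vim, Des and Nes, the stress gene Gadd45a and the adhesion molecule gene Ncam1. They were chosen by symbol, with earlier results of these data known, and all 10 were among the 6540 genes measured. Total RNA of 13 groups of mice, 2 samples each, was hybridised on 26 arrays with 2 channels, each sample in channel 1 of an array and in channel 2 of another. All arrays thereby formed 1 closed loop, and none held a common reference. The groups are given by line name only, and what each line lacks is background knowledge of that name. Wild type was represented by bl6 and by bl10, and loss of dystrophin by mdx and by mdx3cv. Loss of a sarcoglycan was represented by sgca (alpha), sgcb and sgcb2 (beta, for sgcb2 from its name alone) and sgcd (delta), loss of dysferlin by sjl and dysf, and loss of sarcospan by sspn. The line hDMD carries the human DMD gene, and whether it also lacks the mouse gene is not stated. Another sarcoglycan-deficient line entered the pooled comparisons only. The tissue, the background strain, the age and the sex of the mice are not stated in the labels; background strain and sex cannot be told apart from the missing protein. Nothing says that both samples of a group are from separate mice. The p-values here reflect the scatter of ratios over all arrays and groups, with 1 ratio of sample to array variance for all genes. That scatter can be technical.

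When a muscle fibre dies, satellite cells marked by Pax7 divide, switch on Myf5 and Myod1 and then Myog, and fuse into new fibres. Myoblasts and young fibres build their intermediate filaments from vimentin (Vim) and nestin (Nes) before desmin (Des) takes over in the mature fibre, and they carry the adhesion molecule NCAM1 on their surface. Gadd45a, a gene induced by DNA damage and other stress, also rises in muscle that has lost its nerve supply or wastes. Several of these genes are not restricted to muscle cells, and vimentin is abundant in macrophages, fibroblasts and endothelium.

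The promoters of Vim and Gadd45a, the called members with an entry, and of Myog, the myogenic factor with the largest difference, are shown first, as the 250 bases before the annotated start of the gene, 5′ to 3′ on the strand of the gene (RefSeq, GRCm38.p6). The RefSeq table matched 7 of the 10 members; Myod1, Myf6 and Ncam1 had no entry. For Vim (chr2:13574061-13574310, plus strand) capitals mark CCAAT in either orientation (CCAAT or ATTGG) and TATAAA (searched in both). For Gadd45a (chr6:67037408-67037657, minus strand) they mark the octamer ATGCAAAT in either orientation (ATGCAAAT or ATTTGCAT) and CCAAT. For Myog (chr1:134289754-134290003, plus strand) they mark the E-box CANNTG, the element that the 4 myogenic factors bind.
Vim: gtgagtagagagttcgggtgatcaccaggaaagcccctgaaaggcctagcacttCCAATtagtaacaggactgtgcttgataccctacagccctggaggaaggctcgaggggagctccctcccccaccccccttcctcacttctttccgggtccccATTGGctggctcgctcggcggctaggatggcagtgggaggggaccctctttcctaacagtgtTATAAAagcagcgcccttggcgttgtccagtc
Gadd45a: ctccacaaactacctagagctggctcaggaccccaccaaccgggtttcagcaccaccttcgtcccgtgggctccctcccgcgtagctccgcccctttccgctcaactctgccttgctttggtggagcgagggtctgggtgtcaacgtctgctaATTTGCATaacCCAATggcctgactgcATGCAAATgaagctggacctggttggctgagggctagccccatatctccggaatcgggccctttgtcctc
Myog: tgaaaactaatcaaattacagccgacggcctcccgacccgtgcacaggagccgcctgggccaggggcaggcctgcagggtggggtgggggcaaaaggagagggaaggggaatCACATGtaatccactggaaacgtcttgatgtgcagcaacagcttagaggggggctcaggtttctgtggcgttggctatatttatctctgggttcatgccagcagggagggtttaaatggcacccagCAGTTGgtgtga

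The elements marked differ between these 3 windows, but CCAAT was found in both Vim and Gadd45a and an E-box in both Myog and Gadd45a. The Gadd45a window held the octamer at 2 places, 97 to 90 and 70 to 63 bases before the start, with a CCAAT 86 to 82 bases before the start between them. Of 32851 promoter windows of the same length in the table, 1.6% held the octamer on either strand and 0.0974% held it at 2 or more places. The Vim window held CCAAT at 2 places and a TATAAA 32 to 27 bases before the start, letters that occurred in 33.8% and 12.4% of all windows. The Myog window held 2 E-boxes, CACATG and CAGTTG, the latter 12 to 7 bases before the start, and 66.2% of all windows held an E-box. The Vim window held no E-box, and the single one of the Gadd45a window, CAAATG, overlapped an octamer. The AP-1 letters TGANTCA were found in none of the 3 windows and in 6.75% of all windows. Such matches describe the letters only.

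Gadd45a, Vim and Ncam1 were higher in the dystrophin- and sarcoglycan-deficient lines (7 lines, 14 samples) than in wild type (2 strains, 4 samples), while the 4 myogenic factors, Pax7, Des and Nes did not pass the test. Gadd45a was 1.94 ± 0.26 higher on the log2 scale (SE; 3.83-fold), Vim 2.26 ± 0.42 (4.78-fold) and Ncam1 1.10 ± 0.26 (2.14-fold). The limma adjusted p over all 6540 genes was 0.000445 for Gadd45a, which ranked 4 by p, 0.00328 for Vim and 0.0136 for Ncam1. These were 3 of 10 members, where 7.8% of all genes tested passed an adjusted p of 0.05 and 6.45% passed as higher (422 higher and 88 lower, or 126 and 54 with the arrays scaled alike). The median difference over all genes was 0.06. The samples were labelled mouse models with no tissue named, and a ratio within an array carries no absolute level, so neither the tissue nor the presence of a cell type could be read from the values. In such bulk RNA, fewer cells of a type and less RNA per cell cannot be told apart.

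**Figure D1:**
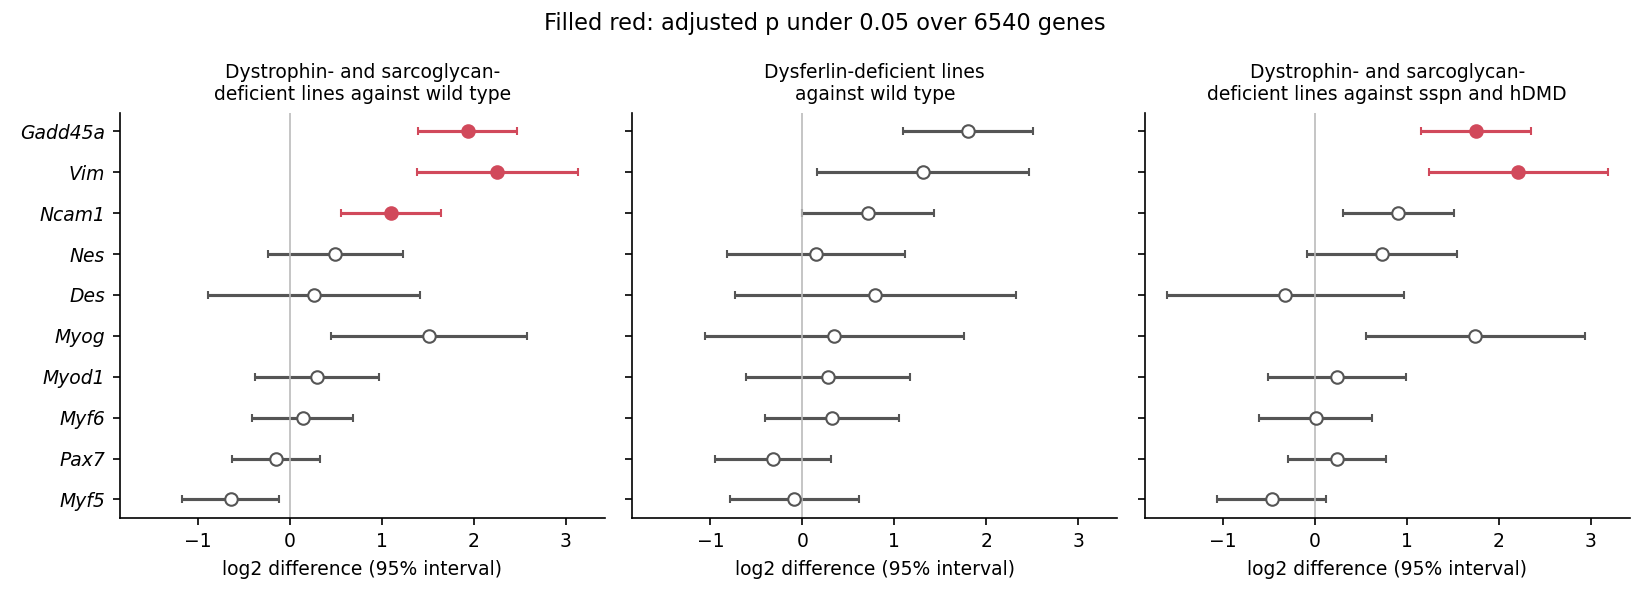
The 10 members in 3 comparisons, as log2 differences with 95% intervals; red filled points passed an adjusted p of 0.05 over 6540 genes. Gadd45a at 1.94, Vim at 2.26 and Ncam1 at 1.10 passed in the left panel, none passed in the middle panel, and Vim at 2.21 and Gadd45a at 1.75 passed in the right panel.

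The call of each of these 3 genes rested in part on bl6. The wild type strains themselves did not differ by the test in any member (bl10 minus bl6, Vim 1.12 ± 0.67, Gadd45a 0.85 ± 0.41, limma adjusted p = 0.658 and 0.610), yet with bl10 alone as wild type the differences were 1.51 for Gadd45a (limma adjusted p = 0.0555), 1.70 for Vim (0.191) and 1.00 for Ncam1 (0.20). With bl6 alone they were 2.36, 2.82 and 1.20, all past the threshold. Without bl6 sample 1 Vim was at 2.18 with a limma adjusted p of 0.0501, and the other left-out samples kept Vim and Gadd45a past the threshold.

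Gadd45a belongs to a small family of acidic proteins that bind cell cycle and stress kinases. Its sample levels, relative to the mean of the 13 groups and drawn by the fit toward their group, were -1.96 and -1.59 in bl6 and -0.98 and -0.87 in bl10. In the 12 samples of the 6 dystrophin- and sarcoglycan-deficient lines given one by one they ran from 0.35 over a median of 0.63 to 1.25. The 4 dysferlin-deficient samples ran from 0.42 to 0.48, and the sspn samples were at 0.26 and 0.39. For this and the other members, the share of all genes whose samples separate in the same way was not counted. On the 4 arrays that paired one of those lines with wild type directly, Gadd45a was higher in the line each time, by 0.82 (mdx3cv over bl10), 1.09 (sgca over bl6), 2.43 (sgcb2 over bl10) and 3.70 (mdx over bl6).

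The fitted levels of Gadd45a, from the top, were 1.24 ± 0.32 (SE, n = 2) in sgcb2, 0.81 in mdx, 0.68 in mdx3cv, 0.61 in sgcd, 0.49 in sgcb, 0.46 in sjl, 0.45 in dysf, 0.39 in sgca and 0.33 in sspn, then -0.92 in bl10, -1.78 in bl6 and -2.65 in hDMD. The line not given by itself is left out of this order. Among neighbours in it, 2 gaps exceeded 2 SE, sspn over bl10 by 1.25 ± 0.48 and bl10 over bl6 by 0.85 ± 0.41. Gaps found by sorting on the same values are a description and not a test. Among the single lines set against wild type, Gadd45a passed in mdx (2.16, limma adjusted p = 0.0112, with 1.33% of genes called in mdx), sgca (1.73, 0.00888; 7.42% of genes), sgcb2 (2.59, 0.00934; 0.199%), sgcd (1.96, 0.0170; 2.13%) and sjl (1.81, 0.0452; 0.245%). It did not pass in mdx3cv (2.03, limma adjusted p = 0.103), sgcb (1.84, 0.187) or dysf (1.80, 0.201), although those differences were of like size. With each of the 26 samples left out in turn, the call stood in 24 fits for mdx and for sgca, 23 for sgcb2, 19 for sgcd and 9 for sjl. Without mdx sample 1 the value in mdx was 1.56 (limma adjusted p = 1.00), without sgca sample 1 that in sgca was 2.09 (0.254), and without either sample of sgcb2 or of sgcd their calls were lost too (2.56 to 2.63 and 1.77 to 2.17).

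The line with the highest Gadd45a also differed from the rest in Xist, the RNA of the inactive X chromosome of female cells, which was 4.33 to 6.26 higher in sgcb2 than in its partners on 4 arrays and between -0.43 and 1.68 on 18 arrays without it. With sgcb2 left out of the pooled lines, Gadd45a was 1.83 higher than in wild type (limma adjusted p = 0.00137), Vim 2.28 (0.00387) and Ncam1 1.07 (0.0175).

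**Figure D2:**
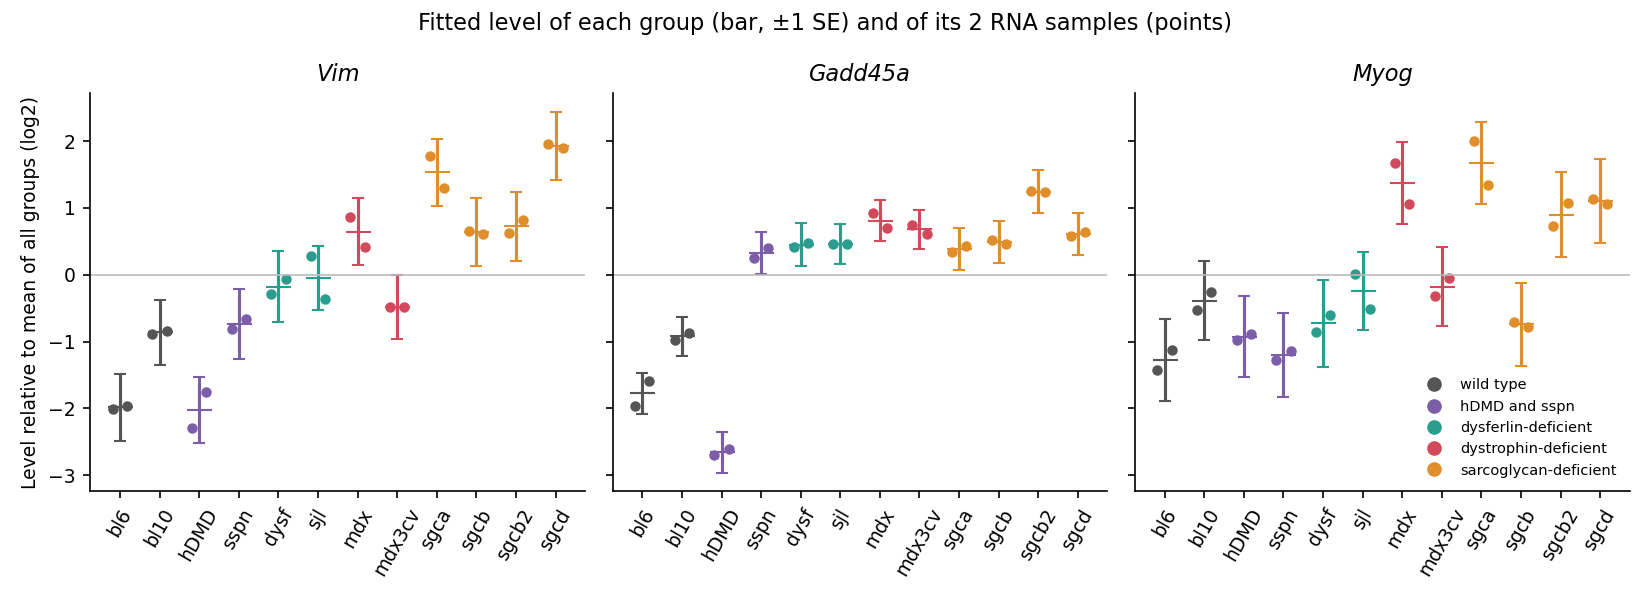
Fitted levels of Vim, Gadd45a and Myog in 12 groups relative to the mean of the 13 groups (log2; bars ± 1 SE), with the 2 RNA samples of each group as points. Gadd45a was at 0.26 or higher in every sample of the deficient lines shown and at -0.87 or lower in wild type and hDMD, Vim was highest in sgcd and sgca, and Myog was at -0.18 in mdx3cv and -0.74 in sgcb, beside -0.39 in bl10.

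Vim, the intermediate filament of immature muscle cells and of many cells outside the fibre, covered a wider range among these lines than Gadd45a. Its sample levels, likewise drawn by the fit toward their group, were -2.01 and -1.96 in bl6 and -0.89 and -0.84 in bl10. In the 12 samples of the 6 lines they ran from -0.49 over a median of 0.74 to 1.96. Highest were sgcd (1.96 and 1.90) and sgca (1.77 and 1.29), and both mdx3cv samples (-0.48 and -0.49) were closest to wild type. On the directly paired arrays Vim was higher by 0.36 (mdx3cv over bl10), 1.44 (sgcb2 over bl10), 3.81 (sgca over bl6) and 3.93 (mdx over bl6). No gap between neighbours in the order of its fitted levels in the named groups exceeded 2 SE. Against wild type Vim passed in sgca (2.96 ± 0.60, limma adjusted p = 0.00719) and sgcd (3.35 ± 0.67, 0.0163), and was at 2.07 in mdx, 2.06 in sgcb, 2.15 in sgcb2 and 0.94 in mdx3cv. With 1 sample left out in turn, the Vim call stood in 23 of 26 fits in sgca and 21 of 26 in sgcd, and in mdx, where it had not passed, Vim passed in 9. Without sgca sample 1 the Vim difference in sgca was 1.60 (limma adjusted p = 0.875), and without sgcd sample 1 or 2 that in sgcd had a limma adjusted p of 0.364 or 0.112.

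The dystrophin-deficient and the sarcoglycan-deficient lines were also taken separately. Gadd45a was 2.09 ± 0.30 higher in mdx and mdx3cv than in wild type (4 samples against 4, limma adjusted p = 0.00453), the smallest p of all genes there, and was the single member called where 0.795% of genes were. In the sarcoglycan-deficient lines (5 lines, 10 samples) Vim was 2.56 ± 0.46 higher (limma adjusted p = 0.00364), Gadd45a 1.87 ± 0.28 (0.00153) and Ncam1 1.11 ± 0.28 (0.0231), 3 of 10 members against 6.77% of genes. The difference between both kinds of line did not pass in any member: Vim was 1.05 ± 0.46 lower in the dystrophin-deficient lines (95% interval -2.01 to -0.09, limma adjusted p = 1.00) and Gadd45a differed by 0.22 ± 0.28 (-0.37 to 0.81). The Gadd45a call in the dystrophin-deficient lines stood in 22 of 26 fits with 1 sample left out. It was lost without bl6 sample 1 (1.48, limma adjusted p = 0.203) or mdx sample 1 (1.73, 0.145), and also, with a larger difference, without mdx3cv sample 2 (2.40, 0.0641) or bl10 sample 2 (2.35, 0.0733). The Ncam1 call in the sarcoglycan-deficient lines stood in 13 of the 26 fits with 1 sample left out, and Vim in the dystrophin-deficient lines (1.51, limma adjusted p = 0.144) passed without mdx sample 2 (2.02, 0.0312).

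Markers of other cells moved with the members. Of 21 measured macrophage markers, 16 were higher in the dystrophin- and sarcoglycan-deficient lines than in wild type and none lower, with a median difference of 2.63, and of 17 fibroblast markers 12 were higher, with a median of 1.07; of all genes 6.45% were called higher and 1.35% lower. None of 10 endothelial, 7 smooth muscle and pericyte or 14 skeletal muscle fibre markers passed, and 1 of 9 Schwann cell markers did, Egr2 at 1.03 with a limma adjusted p of 0.0497. Over the 26 arrays, which share RNA samples, the ratio of Vim followed the mean ratio of the macrophage markers (r = 0.93) and of the fibroblast markers (r = 0.92), and that of Myog the macrophage mean (r = 0.88). The same r was 0.72 for Ncam1 and 0.58 for Gadd45a with the macrophage mean, and 0.78 and 0.71 with the fibroblast mean. In the named lines the mean level of the macrophage list was 2.06 in sgcd, 1.98 in sgca, 1.32 in mdx, 0.71 in sgcb2, 0.05 in mdx3cv and -0.29 in sgcb. The part of these cells in the rise of Vim, Ncam1 and Gadd45a was not tested. In the other named groups the level of the macrophage list was 0.22 in sjl, -0.65 in dysf, -0.78 in bl10, -1.77 in sspn, -1.78 in bl6 and -2.05 in hDMD. Gadd45a was at 0.46 in sjl, 0.45 in dysf, -0.92 in bl10, 0.33 in sspn, -1.78 in bl6 and -2.65 in hDMD, and at 0.49 in sgcb. The level of the fibroblast list was -0.14 in sjl, 0.43 in dysf, -0.64 in bl10, -0.33 in sspn, -0.90 in bl6 and -0.78 in hDMD, and 0.49 in sgcb. These list means are given without an SE. The macrophage count was 4 when bl6 sample 1 was left out, 9 without mdx sample 1, 10 without mdx3cv sample 2 and 1 with bl10 alone as wild type. The fibroblast count was 2 to 7 without bl10 sample 1 or 2, bl6 sample 1 or 2, mdx sample 1, mdx3cv sample 2, sgca sample 1 or sgcb2 sample 1 or 2, and 0 with bl10 alone.

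**Figure D3:**
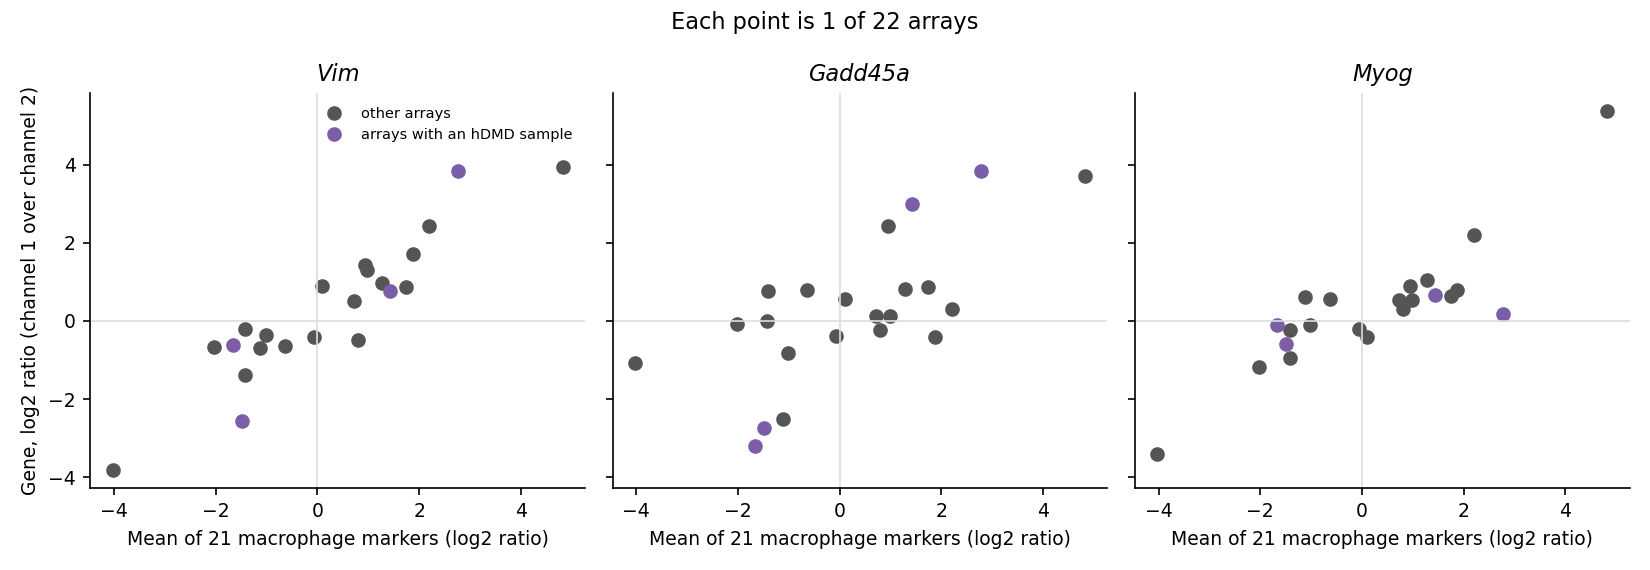
Log2 ratio (channel 1 over channel 2) of Vim, Gadd45a and Myog on 22 arrays against the mean ratio of 21 macrophage markers on the same array; arrays with an hDMD sample are purple. Vim and Myog lie along the macrophage mean (r = 0.92 and 0.85 over these 22 arrays), and Gadd45a is more scattered (r = 0.69), with its outer points on arrays that hold hDMD or bl6.

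Likeness to a member was ranked over 6502 other genes. Symbols of predicted genes and clones were passed over, and so was any symbol that starts with C or D and a digit. Among the ranked genes, those with ratios most like Vim over the 26 arrays were Lgmn (r = 0.96), a lysosomal protease gene, Actg1 (0.96), a cytoplasmic actin gene, Rpl3 (0.95), Sat1 (0.95) and Sgpl1 (0.94). Those most opposed to Vim were Adssl1 (-0.87), the muscle enzyme of the purine nucleotide cycle, Tnfrsf4 (-0.86) and Tshb (-0.85). Gadd45a had other companions: Rsrp1 (0.92), Nck1 (0.92), Ddx5 (0.92), an RNA helicase gene, Gt(ROSA)26Sor (0.89) and Mob4 (0.89). Most opposed to it were Cish (-0.78), an inhibitor of cytokine signalling, Dlx4 (-0.77) and Ccdc106 (-0.77). Cish was 2.84 lower in the dystrophin- and sarcoglycan-deficient lines (limma adjusted p = 0.00296) and Rsrp1 1.71 higher (0.00685). Ncam1, as the mean of its spots, was most like Aif1 (0.85), a macrophage gene, Col6a1 (0.85), Klf5 (0.84), Pcolce (0.84) and Tmem176b (0.84). It was least like Psmc4 (-0.71), Pon1 (-0.70) and Inmt (-0.69).

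The sample levels of Ncam1, as the mean of all its spots and drawn toward their group, were -0.86 to -0.62 in the 4 wild type samples. In the 12 samples of the 6 lines they ran from 0.18 over a median of 0.44 to 0.67. In this mean both sspn samples were lower than wild type (-1.09 and -1.04), but its spots differed in this, as given below. On the paired arrays Ncam1 was higher by 0.85 (mdx3cv over bl10), 0.99 (sgcb2 over bl10), 1.68 (sgca over bl6) and 1.93 (mdx over bl6). Ncam1 was measured by 6 spots from 3 database sequences, and these did not give 1 answer. Over the 26 arrays the spots of D13289 and X15052 ran together (r = 0.88), and those of X59306 with neither (r = -0.15 and 0.00). Taken as separate features, a choice made after seeing the data, D13289 was 2.03 ± 0.29 higher in the dystrophin- and sarcoglycan-deficient lines than in wild type (limma adjusted p = 0.000736, rank 5 by p) and X15052 1.81 ± 0.34 (0.00354), whereas X59306 was at -0.54 ± 0.43 (0.505). The call of the mean over all 6 spots, 1.10, was lost without bl10 sample 2, bl6 sample 1 or 2, mdx sample 1, mdx3cv sample 2 or sgca sample 1 (0.89 to 1.16, limma adjusted p = 0.0629 to 0.135). D13289 stayed past the threshold with each of the 26 samples left out in turn (1.67 to 2.38, adjusted p at most 0.0235), and X15052 in 25 of 26, the exception being bl10 sample 2 (adjusted p = 0.0590).

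The fitted levels of D13289 were 1.31 in sgca, 1.11 in sgcd, 0.79 in sgcb2, 0.57 in mdx, 0.42 in mdx3cv and 0.06 in sgcb, then -0.09 in dysf, -0.34 in hDMD, -0.46 in sjl, -0.68 in sspn, -1.01 in bl10 and -1.79 in bl6 (SE 0.33 to 0.36, n = 2). Both wild type strains were thus lowest, and it passed against wild type in mdx (1.97, limma adjusted p = 0.0213), sgca (2.71, 0.00105), sgcb2 (2.19, 0.0359) and sgcd (2.51, 0.0128). X59306 was lowest in sspn, at -2.0 ± 0.53, and the arrays of sspn did not agree there: it was 4.76 lower in sspn than in dysf and 3.46 lower than in mdx3cv, but 0.09 higher than in sgcb. The difference of sspn from wild type in X59306, -2.49 ± 0.74, did not pass (limma adjusted p = 0.202). By D13289 and X15052 sspn was on the other side of wild type, at 0.72 ± 0.49 and 0.78 ± 0.59, and did not pass either (limma adjusted p = 0.588 and 0.624). The low level of sspn in the mean of all spots thus came from X59306.

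**Figure D4:**
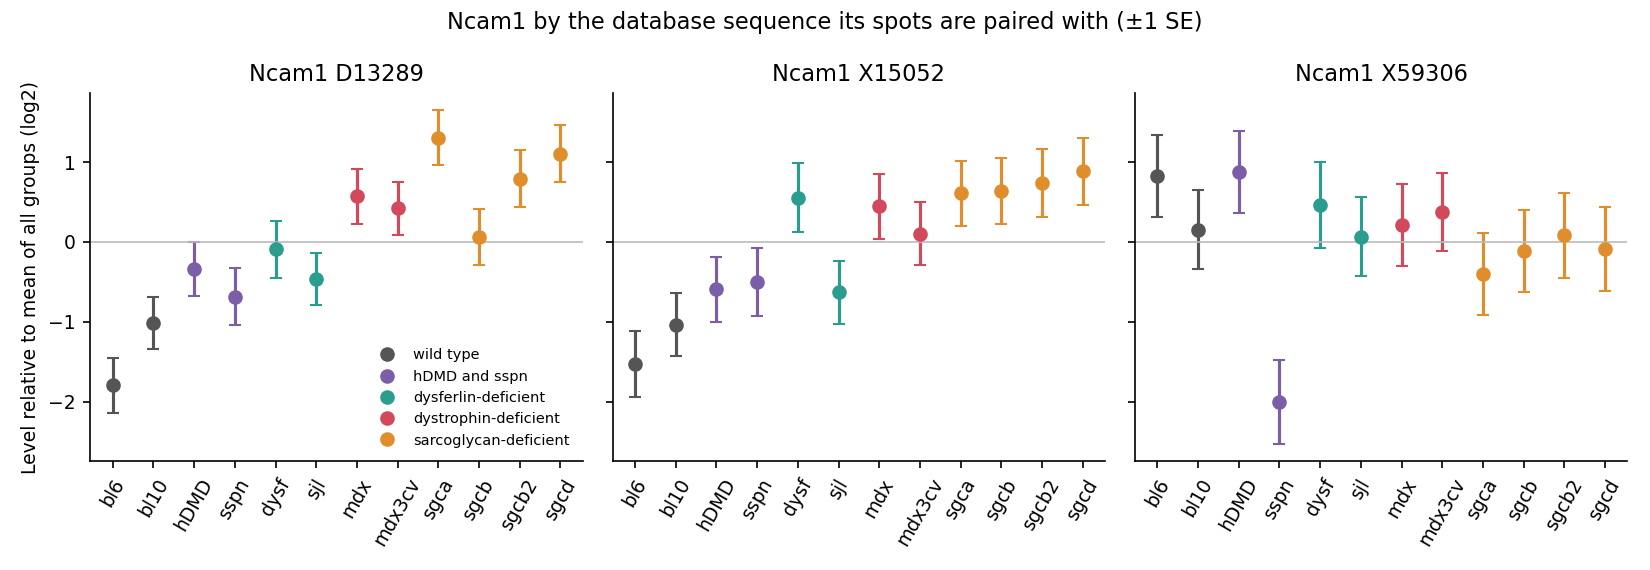
Fitted levels of Ncam1 in 12 groups (log2, relative to the mean of the 13 groups, ± 1 SE), separately for the spots of the 3 database sequences. D13289 and X15052 are lowest in bl6 and bl10, and X59306 is lowest in sspn at -2.0 and does not separate wild type from the deficient lines.

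Of the myogenic factors, Myog, which drives fusion and terminal differentiation, had the largest difference and did not pass: it was at 1.52 ± 0.51 in the dystrophin- and sarcoglycan-deficient lines against wild type (95% interval 0.45 to 2.58, limma adjusted p = 0.0755). Its sample levels, again drawn by the fit toward their group, were -1.43 and -1.13 in bl6 and -0.53 and -0.26 in bl10. In the 12 samples they ran from -0.77 over a median of 1.06 to 2.0. Highest were both sgca samples (2.0 and 1.35) and mdx sample 1 (1.67). Both sgcd samples (1.13 and 1.07), sgcb2 sample 2 (1.07) and mdx sample 2 (1.06) followed. On its own arrays mdx sample 2 was lower than its partners, at -2.21 over sgca sample 1 and -0.21 over sgcb2 sample 2. Both sgcb samples (-0.71 and -0.77) were as low as wild type. On the paired arrays Myog was higher by 0.10 (mdx3cv over bl10), 0.90 (sgcb2 over bl10), 3.41 (sgca over bl6) and 5.36 (mdx over bl6). It passed in sgca alone among the named lines (2.51 ± 0.73, limma adjusted p = 0.0409), and this call stood in 14 of 26 fits with 1 sample left out (0.83 to 3.87, the lowest without sgca sample 1, limma adjusted p = 0.960). In mdx, where it was at 2.20 and had not passed, Myog passed in 3 of those fits (0.40 to 3.45). The pooled difference passed without sjl sample 1 (1.69, limma adjusted p = 0.0328) or 2 (1.91, 0.0245), mdx sample 2 (1.51, 0.0449), sgca sample 2 (1.53, 0.0459), or 1 sample of the line not given by itself (2.0, 0.0398). Genes most like Myog, ranked in the same way, were Il1rn (r = 0.92) and Cd53 (0.91), both of white blood cells, then Pld3 (0.91), Prkcd (0.91) and Myo1f (0.91). Most opposed to Myog were Slc2a4 (-0.79), Rilpl1 (-0.79) and Slit3 (-0.79).

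Myf5, the earliest of the factors, was on the opposite side, at -0.64 ± 0.26, and did not pass (95% interval -1.18 to -0.11, limma adjusted p = 0.135). Its sample levels, also drawn by the fit toward their group, ran from 0.02 to 0.79 in wild type. In the 12 samples of the deficient lines they ran from -0.68 over a median of -0.26 to 0.14. Without mdx sample 2 its difference was -0.66, with a limma adjusted p of 0.04999. Its ratios ran against those of Vim (r = -0.65) and Myog (r = -0.62) over the 26 arrays. Myod1 was at 0.30 ± 0.32 (95% interval -0.38 to 0.97), Myf6 at 0.14 ± 0.26 (-0.41 to 0.69), and Pax7 at -0.15 ± 0.23 (-0.62 to 0.33). The intervals of Myod1 and Myf6 leave room for differences of up to 0.97 and 0.69 on the log2 scale. For Pax7 the 2 spots agreed poorly (r = 0.47, against 0.86 to 0.996 for the spots of the other members with 1 sequence each) and its ratios had a spread at the 14.6 percentile of all genes.

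Nes was at 0.50 ± 0.35 (95% interval -0.24 to 1.23, limma adjusted p = 0.453). Des, the filament of the mature fibre, differed by 0.26 ± 0.55 (95% interval -0.89 to 1.42, adjusted p = 0.831) and the values of hDMD in it came apart by sample. On both of its arrays hDMD sample 1 was far below its partner in Des, by 4.83 against dysf sample 2 and by 5.77 against sgcb sample 2. hDMD sample 2 was above its partners, by 2.64 over mdx3cv sample 1 and 1.01 over sjl sample 2. The spots of Des agreed (r = 0.99). hDMD sample 1 stood apart in general: 271 genes were more than 2 lower than the partner on both of its arrays (log2), against 0 to 35 in the other 23 named samples. Likewise sgca sample 1 had 125 genes more than 2 higher, against 0 to 39 in the other named samples. Neither range covers the samples of the line not given by itself. The fitted levels of Des were high in sgcb (2.14 ± 0.67), dysf (1.97 ± 0.70) and sspn (1.63 ± 0.69) and at 0.17 or lower in the other named groups. Those 3 lines adjoin hDMD in the loop of arrays or each other. Their differences from wild type, 2.49 in sgcb, 2.33 in dysf and 1.99 in sspn, did not pass, and with hDMD sample 1 or 2 left out they were 1.08 or 1.10, 0.77 or 0.87, and 1.09 or 1.18. Without hDMD sample 1 the dystrophin- and sarcoglycan-deficient lines were 1.44 ± 0.33 lower in Des than sspn and hDMD (limma adjusted p = 0.0158), and without hDMD sample 2 they were 1.51 ± 0.37 higher (0.0145), 2 calls in opposite directions from a difference of -0.32 ± 0.62 with both. Against wild type Des in hDMD was at -0.82 with both samples, 1.59 without sample 1 and -4.34 without sample 2 (limma adjusted p = 0.905, 0.632 and 0.000270).

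**Figure D5:**
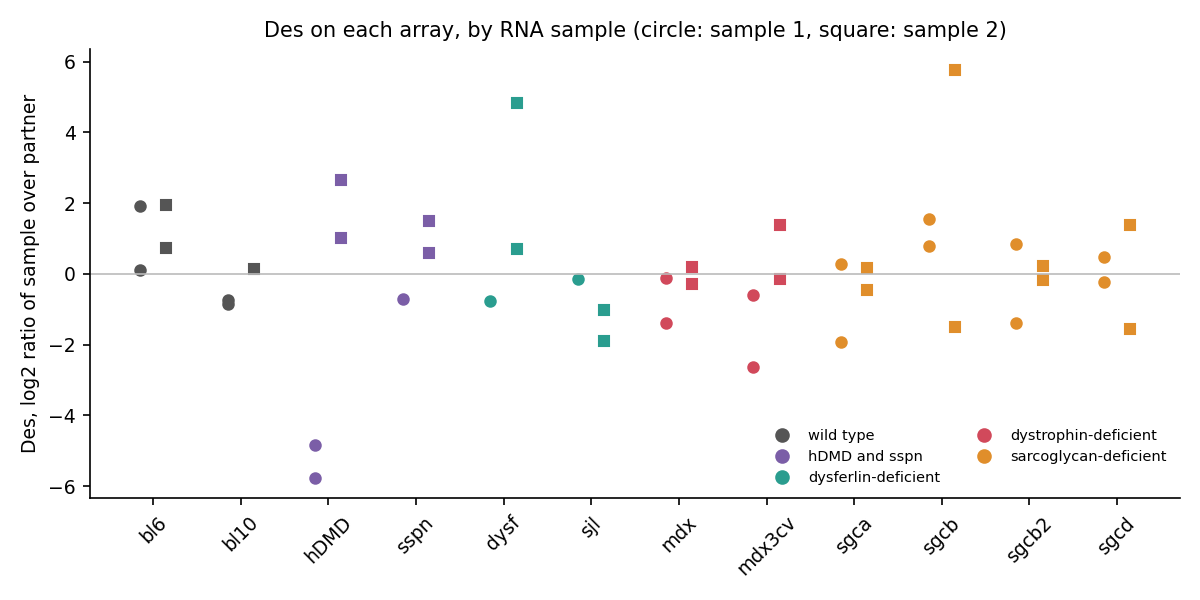
Log2 ratio of Des for each RNA sample over its partner on the same array, by group, on the 22 arrays of the 12 groups (circles, sample 1; squares, sample 2). The 2 circles of hDMD lie at -4.83 and -5.77 and its squares at 2.64 and 1.01; the same arrays give the top values of dysf and sgcb.

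In the dysferlin-deficient lines, which keep dystrophin and the sarcoglycans, no member passed against wild type (4 samples against 4), where 0.0459% of genes did. Gadd45a was closest, at 1.80 ± 0.34 (95% interval 1.09 to 2.51, limma adjusted p = 0.0562), followed by Vim at 1.31 ± 0.56 (0.493) and Ncam1 at 0.71 ± 0.34 (0.573), and Myog was at 0.35 ± 0.68. On the array that set sjl sample 2 against bl6 sample 1, Gadd45a was 2.50 and Vim 0.70 higher in sjl. The dystrophin- and sarcoglycan-deficient lines were at 1.94 against the same wild type samples, and the difference between both sets of lines was 0.13 ± 0.26 (95% interval -0.41 to 0.68, limma adjusted p = 0.949). For Vim that difference was 0.95 ± 0.42 (0.07 to 1.82, adjusted p = 0.558) and for Myog 1.17 ± 0.51 (0.10 to 2.24, 0.551); no member passed and 0.122% of genes did. The Gadd45a difference of the dysferlin-deficient lines from wild type passed with bl6 alone as wild type (2.23, limma adjusted p = 0.0266) and in 7 of the 26 fits with 1 sample left out: without bl6 sample 2 (2.05), sgca sample 1 (1.98), sgcb sample 1 (2.0) or 2 (1.83), mdx sample 2 (1.79) and hDMD sample 1 (1.82) or 2 (1.81). Without bl6 sample 1 it was at 1.20 (limma adjusted p = 0.451). dysf and sjl did not differ in Gadd45a (-0.0068 ± 0.48, 95% interval -0.997 to 0.984) by more than their error.

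The names of sspn and hDMD give no loss of dystrophin or a sarcoglycan. Against both together, Vim was 2.21 ± 0.47 higher in the dystrophin- and sarcoglycan-deficient lines (14 samples against 4, limma adjusted p = 0.00732) and Gadd45a 1.75 ± 0.29 (0.00140), 2 of 10 members where 6.64% of genes passed. Myog at 1.75 ± 0.57 (0.0723) and Ncam1 at 0.91 ± 0.29 (0.0647) did not. The fitted level of Gadd45a was 0.33 in sspn and -2.65 in hDMD. In sspn against wild type Gadd45a was at 1.67 ± 0.45 (limma adjusted p = 0.162), and no member passed where 0.107% of genes did; without bl6 sample 2 (1.98, limma adjusted p = 0.0296) or sgca sample 1 (1.84, 0.0489) it passed. In hDMD it was at -1.30 ± 0.43 (limma adjusted p = 0.546), where 0.0153% of genes passed and no member did. On every array hDMD was below its partner in Gadd45a. The gaps were 2.73 (dysf) and 3.84 (sgcb) for sample 1, and 3.20 (mdx3cv) and 2.99 (sjl) for sample 2. Those partner lines had fitted levels of 0.45 to 0.68, and no array paired hDMD with wild type directly. In Vim, sample 1 was 2.56 and 3.85 below its partners and sample 2 0.62 and 0.76 below. Without hDMD sample 1, Gadd45a in hDMD was 1.13 below wild type and Vim 0.55 above. The Vim difference from sspn and hDMD lost its call without mdx3cv sample 1 (2.16, limma adjusted p = 0.0560) or sspn sample 1 (1.97, 0.0938), and without 1 sample of the line that is not given by itself (1.62, 0.136).

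A test of any difference among the 13 groups passed for Gadd45a (limma adjusted p = 0.000198, rank 5) and Vim (0.0276) and for 3.2% of all genes, and not for Ncam1 (0.121), Des (0.281) or Myog (0.296). mdx and mdx3cv, both without dystrophin, did not differ by the test in any member, with Vim at 1.12 ± 0.69 and Myog at 1.55 ± 0.84 higher in mdx (95% intervals -0.32 to 2.57 and -0.21 to 3.31).

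Wider lists of the same biology were read beside the members in the dystrophin- and sarcoglycan-deficient lines against wild type. The lists were written with earlier results of these data known, so their counts are descriptive. Of 28 measured genes of immature and regenerating fibres, members included, 12 were higher and none lower, with a median difference of 0.99, where 6.45% of all genes were called higher and 1.35% lower. Of those 12, 3 were the members Vim, Gadd45a and Ncam1. Among the others on that list Mest, an imprinted gene of growing tissue, was 3.08 ± 0.46 higher (limma adjusted p = 0.00119), H19 3.07 ± 0.52 (0.00230), the slow and fetal troponin I gene Tnni1 3.24 ± 0.56 (0.00247) and the embryonic and cardiac troponin T gene Tnnt2 2.02 ± 0.40 (0.00471). Ankrd1, a stretch-induced titin-binding protein gene, rose by 1.65 and Dlk1 by 1.14. That count was 7 without mdx sample 1, 6 without bl10 sample 2, 4 without bl6 sample 1 and 0 with bl10 alone as wild type.

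Of 31 measured partners and regulators of the myogenic factors, 6 were higher and 1 lower, with a median of 0.50, beside the same 6.45% and 1.35% of all genes. The cell cycle inhibitor Cdkn1c was 1.80 ± 0.30 higher (limma adjusted p = 0.00202), the retinoblastoma gene Rb1 1.08 ± 0.25 (0.0126), Id2, an inhibitor of E-box factors, 1.66 ± 0.45 (0.0295) and Msc, a repressor that binds the same E-boxes, 0.88 ± 0.24 (0.0291). Eya4, a transcriptional coactivator and phosphatase, was 1.70 ± 0.32 lower (limma adjusted p = 0.00357). The count of higher genes was 1 without bl10 sample 1, bl6 sample 1, mdx sample 1 or sgcb2 sample 1, 2 without bl10 sample 2, mdx3cv sample 2, sgca sample 1, sgcb2 sample 2 or sgcd sample 1, and 3 without sgcd sample 2 or sspn sample 2. Of 30 satellite cell and myoblast genes 3 were higher, a share near the 6.45% of all genes. They were the members Vim and Ncam1 and the Notch ligand gene Dll1 (1.36 ± 0.32, limma adjusted p = 0.0138). The count was 1 without bl10 sample 2, bl6 sample 1 or 2, mdx sample 1, mdx3cv sample 2 or sgca sample 1. The count was 5 to 8 without sgca sample 2, sjl sample 1 or 2, or either sample of the line not given by itself.

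Of 23 genes of intermediate filaments and their linkers, Vim and the keratin gene Krt8 (0.84 ± 0.23, limma adjusted p = 0.0312) were higher, and of 24 genes of the Gadd45 family and the stress response, Gadd45a and Atf3 (1.22 ± 0.34, 0.0323). Of 19 genes of denervation and atrophy 5 were higher, Gadd45a, Ankrd1, Ncam1, the acetylcholine receptor subunit gene Chrnb1 (0.93 ± 0.23, limma adjusted p = 0.020) and the lysosomal protease gene Ctsl (1.51 ± 0.46, 0.0464), and Asb2 was lower (-1.68 ± 0.43, 0.0209). The count of the filament list was 0 without bl6 sample 1 and 1 without bl10 sample 1 or 2, mdx sample 1, mdx3cv sample 2, sgcb sample 2, sgcd sample 2 or sspn sample 1 or 2. That of the stress list was 1 without any single sample of bl10, bl6, sgcb2 or sgcd, mdx sample 1, mdx3cv sample 2 or sgca sample 1, and 4 without sjl sample 2. That of the denervation list was 1 without bl6 sample 1, 2 without bl10 sample 1 or 2, bl6 sample 2, mdx sample 1, sgca sample 1 or sgcb2 sample 1, and 3 without mdx3cv sample 2. The shares called in the filament and stress lists, each with 1 member among its 2 genes, were near the 6.45% of all genes called higher. With bl10 alone as wild type the myogenic, satellite cell, filament, stress and denervation counts were all 0. In the dysferlin-deficient lines no gene of these 6 lists passed, and the median of the immature fibre list was 0.42 beside 0.12 for all genes.

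Of the genes the lines lack, Sgca was 4.33 ± 0.49 lower in sgca (limma adjusted p = 6.98e-05), and none of the others passed: Dmd was at -0.68 in mdx and -0.46 in mdx3cv, Sgcb at -1.25 in sgcb and -1.01 in sgcb2, Sgcd at -0.30 in sgcd, Sspn at -1.21 in sspn, and Dysf at 0.55 in dysf and 0.76 in sjl. The direction of the deposited ratio was not stated. It was taken as channel 1 over channel 2, with which 7 of these 9 pairs of gene and line were lower, against 2 of 9 the other way round, so every direction given here is likely rather than known.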

How the data were processed

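The authors deposited 1 value per spot and array, and the labels state neither unit, direction nor processing. The values were taken as natural log ratios: the steps left by whole-number intensities fitted the natural log on 26 of 26 arrays in chains of 16 to 106 steps, against at most 3 for log2 or log10. On arrays 6 and 21 another constant gave a chain of 17 steps, against 16 for the natural log, and on array 14 another constant tied with it at 56. The planned tests had assumed log2 ratios, so the values were divided by 0.6931. The logarithm is a generalized one, linear below about 45 to 161 intensity units, which understates changes of dim spots. Array medians (-0.074 to 0.173, natural log) were left as deposited, and their centring stays unknown. Symbols came from the platform annotation: 13662 of 16416 rows had 1 gene, 14 several and 2740 none. Rows of a gene were averaged (6540 genes).

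A loop model with a dye term, 12 group terms and each RNA sample as a random effect (variance ratio 0.207) was fitted to all 26 arrays with limma 3.58.1 in R 4.3.3 (13 residual and 7.38 prior degrees of freedom; median residual SD 0.49). Adjustment was by Benjamini-Hochberg across the 6540 genes, with 0.05 as threshold. The script was tested on simulated data. The number of samples limits the precision; intensities were not used here. Members, gene lists and tests were chosen with earlier results of these data known. Named were all members, for called members the 5 most and 3 least alike genes, the list genes of smallest p and the missing genes; other genes were named after their values were seen. Same-numbered samples had no common deviation in the median (median r -0.03 over 78 pairs of groups). Single pairs of groups ran from r = -0.61 to 0.64, and 32 of the 78 exceeded 0.1. Whether samples of some groups deviated together was not tested, and no pairing was used. Alternatives were other centring, weights, model terms, wild types, spots and filters, and each sample left out. Results of 1 sarcoglycan-deficient line by itself are not reported here.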

Additional observations from a re-analysis of the deposited data

How the results depend on the processing

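Of 1514 values of the 10 members in 12 comparisons under settings other than left-out samples, 1485 kept their direction and side of the threshold, or had no call in either. Most had no call in the main fit, so this share says little about how firm the calls are. The exceptions follow; for those of wild type and of model terms the cause was not tested. With bl10 alone as wild type, which leaves 2 control samples, the differences between the dystrophin- and sarcoglycan-deficient lines and wild type lost their calls (Vim 1.70, Gadd45a 1.51, Ncam1 1.00), as did Gadd45a in the dystrophin-deficient lines (1.67) and Vim (2.00), Gadd45a (1.45) and Ncam1 (1.00) in the sarcoglycan-deficient lines. With arrays scaled alike Gadd45a in the dystrophin-deficient lines was at 1.55 (limma adjusted p = 0.0542). The first or second spot of Ncam1, both of X59306, reversed it (-0.44 and -0.65; sarcoglycan-deficient lines -0.47 and -0.89, sgca -0.87 and -0.91), as did X59306 alone (-0.54 and -0.68), and D13289 alone passed in the dystrophin-deficient lines (1.90) and against sspn and hDMD (1.14; the latter in 8 of 26 fits with 1 sample left out, adjusted p up to 0.256). Calls were gained by Myog without a random effect (1.55) or without the 25% of genes of lowest SD (1.52), and against sspn and hDMD with scaled arrays (1.59), array weights (1.74), no random effect (1.75) or that filter (1.75). Ncam1 gained one against sspn and hDMD with centred (0.94) or scaled arrays (0.90), array weights (0.91) or no random effect (0.90), and Gadd45a in the dysferlin-deficient lines without a random effect (1.83), with that filter (1.80) or with bl6 alone (2.23).

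With 1 sample left out, the ranges of results in the pooled comparisons, sspn and hDMD whose call changed were as follows. Against wild type in the pooled dystrophin- and sarcoglycan-deficient lines Vim lay between 1.89 and 2.71, Ncam1 0.89 and 1.29, Myog 0.72 and 2.00, and Myf5 -0.92 and -0.34. In the dystrophin-deficient lines Gadd45a lay between 1.48 and 2.40, Vim 0.92 and 2.02, Ncam1 0.79 and 1.29, Myog 0.17 and 2.17, and Myf5 -1.01 and -0.088. In the sarcoglycan-deficient lines Ncam1 lay between 0.84 and 1.32 and Myog 0.95 and 2.13. Against sspn and hDMD Vim lay between 1.62 and 3.15, Ncam1 0.74 and 1.15, Myog 1.29 and 2.22, and Des -1.44 and 1.51. Gadd45a lay between 1.20 and 2.05 in the dysferlin-deficient lines and 1.12 and 1.98 in sspn, and Des between -4.34 and 1.59 in hDMD. Calls in single lines changed too. Among them, against wild type, Vim in mdx lay between 0.82 and 2.96, Myog in mdx 0.40 and 3.45, Myf5 in mdx -1.60 and 0.16, Myog in sgca 0.83 and 3.87, and Ncam1 in sgca 0.54 and 1.78. A fit with the replicate number as a block (replicate block: Vim 2.28, Gadd45a 1.92, Ncam1 1.10) changed the call of Ncam1 in sgca (1.23, limma adjusted p = 0.0546) and no other member's; the numbers were not taken as pairs. The count of genes called in the pooled lines, 510, was 180 with scaled arrays (126 higher and 54 lower, against 422 and 88), 292 without the dye term, 10 with bl10 alone, and 74 to 679 with 1 sample left out, fewest without bl6 sample 1 (74), bl10 sample 2 (93) and mdx sample 1 (103). Against sspn and hDMD that count, 434, lay between 64 and 703.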
